A study of Mus musculus with 6 samples.

Results

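The desmosomal cadherins *Dsg1a*, *Dsg2*, *Dsg3*, *Dsc2* and *Dsc3* and the plaque genes *Dsp*, *Jup*, *Pkp1*, *Pkp2* and *Pkp3* were compared between mouse esophageal and stomach organoids. These 10 genes were chosen by name, and every non-control probe that the array files assign to them was used. This gave 16 probes of 10 genes, out of 55681 distinct probes under 34298 gene names. All 16 probes had a value on all 6 arrays.

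Organoids of both tissues, labelled Mu-1, Mu-2 and Mu-4, were measured at passage 0 on single-color Agilent arrays, 3 per tissue. These labels were read as mice 1, 2 and 4 and do not state that arrays with the same number share an animal. The organoids were harvested on day 8, except for the stomach organoids of mouse 4, harvested on day 7, and all carry the label control. Esophageal organoids were seeded as dissociated cells in medium with forskolin, and stomach organoids as corpus glands in medium with gastrin, WNT3A and R-spondin1. Tissue, seeding and medium therefore cannot be told apart. Both media shared EGF, noggin, FGF-10, N-acetyl-L-cysteine, nicotinamide, a TGF-β receptor kinase inhibitor and a ROCK inhibitor. The methods name wild-type C57BL/6 female mice, but the labels do not give the strain, sex or age of the mice used.

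Desmosomes are spot-like junctions that tie the keratin filaments of neighboring epithelial cells together. Desmogleins (*Dsg*) and desmocollins (*Dsc*) are cadherins that span the membrane and bind between cells, while plakoglobin (*Jup*) and the plakophilins (*Pkp*) bind their tails and desmoplakin (*Dsp*) links this plaque to the filaments. Stratified squamous epithelia such as that of the esophagus are known to use several cadherin and plakophilin isoforms in different layers, whereas simple columnar epithelia such as that of the stomach rely mostly on *Dsg2*, *Dsc2* and *Pkp2*.

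All values are log2 intensities, background corrected and quantile normalized by the authors, and differences are esophagus minus stomach with the standard error (SE) of limma. A probe was called when its p-value, adjusted by Benjamini-Hochberg over all 55681 probes, was under 0.05. Against the labelled tissues, 5 of 5 squamous marker genes were higher in esophagus and 7 of 7 gastric columnar marker genes were higher in stomach, with *Trp63* split between its probes. Of 18 fibroblast, muscle, endothelium and immune marker genes, limma called 0 in either direction. A probe with an unadjusted p under 0.05 was found for 3, namely *Cd68*, *Col1a2* and *Cdh5*. *Cd68* was higher in esophagus, by 1.63 at A_55_P1961943 (unadjusted p = 0.0505 by limma) and by 1.41 at A_55_P2067583 (0.034), the latter with no overlap between tissues. *Col1a2* and *Cdh5* differed by -0.58 and -0.52 (unadjusted p = 0.00671 and 0.016 by limma). *Ptprc*, *Pdgfra*, *Des* and *Cdh5* were well above background on no array. Others of these lists, *Cd68*, *Cd3e*, *Tagln*, *Kdr* by A_55_P2094469 and *Pecam1*, were well above background on all 6 arrays. The other *Kdr* probe, A_51_P316553, was so on none. Between 45.5% and 51.1% of spots were well above background and none were saturated. Esophagus array 4 was the 1 array on a second slide, and its values stand apart for several genes below. In bulk RNA, fewer cells of a type and less RNA per cell cannot be told apart, and a level is read only within a probe, since probes differ in response.

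Of the 16 probes, 8 were higher in esophagus and 3 in stomach, and 5 were not called. Across the array, 12.2% of probes were called, 5.94% higher in esophagus and 6.22% higher in stomach. By gene, *Dsg3*, *Dsc3*, *Dsp*, *Jup* and *Pkp1* were higher in esophagus, *Dsg2* and *Pkp2* were higher in stomach, and *Dsg1a*, *Dsc2* and *Pkp3* were not called. These are 5 and 2 of 10 genes, against 7.88% and 8.33% of all genes with at least 1 probe called in that direction. The tissues did not overlap at 9 probes with esophagus higher and 3 with stomach higher, while 28.6% of all probes with 6 values showed no overlap. The median size of the difference, without its sign, was 2.36 over the 16 probes and 0.22 over all probes, or 0.46 over the 25859 probes well above background on every array of a tissue, 25.1% of which were called. Without esophagus array 4, 6 genes were higher in esophagus and 2 in stomach.

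**Figure D1:**
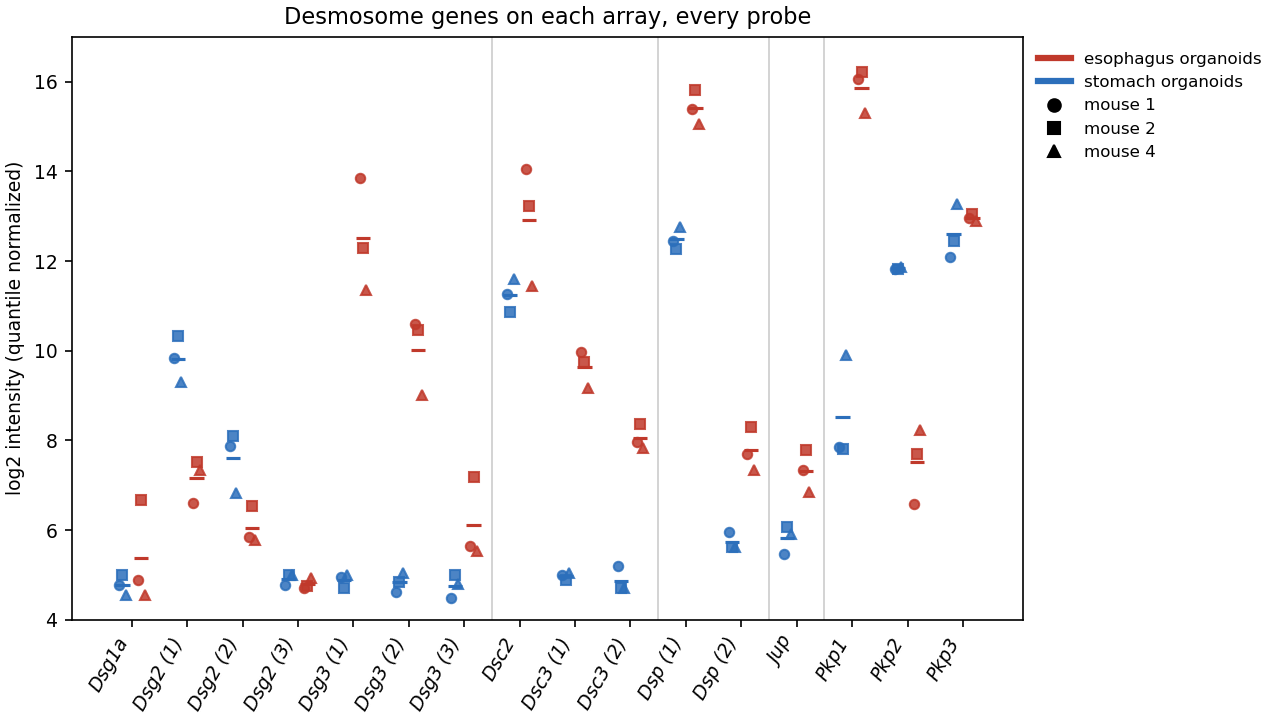
Log2 intensity (vertical axis) of each of the 16 probes on each array, with esophageal organoids in red, stomach organoids in blue, a marker shape for each mouse and a short line for the tissue mean. Probes of a gene are numbered in the order in which they are described, and gray lines separate desmogleins, desmocollins, desmoplakin, plakoglobin and plakophilins. The red and blue points lie far apart for the first 2 of the 3 *Dsg3* probes, *Dsc3*, *Pkp1* and *Pkp2* and overlap for *Dsg1a*, *Dsc2* and *Pkp3*.

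*Dsg3*, the desmoglein of the lower layers of stratified epithelia and an autoantigen of the blistering disease pemphigus vulgaris, was called higher in esophagus at 2 of its 3 probes. Probe A_52_P259402 (chr18:20698528-20698587, plus strand, mm9) read 13.86, 12.30 and 11.35 on esophagus arrays 1, 2 and 4, and 4.95, 4.71 and 4.99 on stomach arrays 1, 2 and 4. All 3 esophagus values lie well over all 3 stomach values, which were not well above background. The measured difference was 7.62 (SE 0.55, n = 3 per tissue, adjusted p = 7.2e-05 by limma), and *Dsg3* was at least 186-fold higher in esophagus. Without esophagus array 1 the bound was 116-fold, and with a normexp offset of 50 the fold was 87.6 (difference 6.45). This bound, like those that follow, sets the esophagus mean against the mean of the lowest signals well above background, or of the probe itself where it was higher. Such bounds hold on the scale of the deposited values, since a larger offset compresses low signals and plain background subtraction spreads them. With background-subtracted signals the measured fold was 1760 scaled to the 75th percentile and 1540 with quantile normalization, both resting on stomach values at background.

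The second *Dsg3* probe, A_55_P2163003, lies 1206 bases further along the same transcript. It read 10.60, 10.46 and 9.01 in esophagus and 4.63, 4.85 and 5.04 in stomach, a difference of 5.18 (SE 0.40, adjusted p = 0.000105 by limma) and at least 35.5-fold, or 16.5-fold with an offset of 50 and 265-fold and 257-fold with these background-subtracted signals. The third, A_55_P2087008, lies 4037 bases beyond the second and was designed on the transcript AK029018. It read 5.64, 7.18 and 5.53 in esophagus and 4.49, 4.99 and 4.8 in stomach. It was well above background on 1 esophagus array and no stomach array, and its difference of 1.36 (SE 0.42, adjusted p = 0.0848 by limma) was not called. It was called with the mouse as a block (adjusted p = 0.0416 by limma) and under background-subtracted signals scaled to the 75th percentile (difference 3.44, adjusted p = 0.00865 by limma). Its tissues did not overlap, but most of its values were at background.

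*Dsg2*, the desmoglein of simple epithelia and heart muscle, differed in the opposite direction. Probe A_51_P249848 (chr18:20761177-20761236, plus strand, mm9) read 9.84, 10.32 and 9.31 in stomach and 6.60, 7.53 and 7.34 in esophagus. The stomach values are all higher, but the esophagus values were still well above background on all 3 arrays. *Dsg2* was 6.34-fold higher in stomach by this probe (difference -2.66, SE 0.32, n = 3 per tissue, adjusted p = 0.00124 by limma).

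A second *Dsg2* probe nearer the start of the transcript, A_52_P88091, read 7.88, 8.10 and 6.82 in stomach and 5.84, 6.53 and 5.79 in esophagus. The tissues do not overlap, and the difference was -1.55 (SE 0.36, adjusted p = 0.0284 by limma). This call was lost without stomach array 1 (adjusted p = 0.122), stomach array 2 (0.113), esophagus array 1 (0.0723) or esophagus array 4 (0.0748), each by limma, where the difference was -1.29 to -1.44. The slide as a term is the same fit as leaving out esophagus array 4. The call was also lost with a normexp offset of 50 (difference -1.17, adjusted p = 0.0794 by limma). Under background-subtracted signals it was lost with quantile normalization (difference -2.09, adjusted p = 0.0945 by limma) but not with scaling to the 75th percentile (difference -2.2, adjusted p = 0.0207 by limma). The third probe, A_52_P96159, was designed on an Ensembl transcript and was well above background on no array, with values from 4.71 to 4.99 and no call (difference -0.12, SE 0.15, adjusted p = 0.703 by limma).

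*Dsg1a* encodes a copy of desmoglein 1, the desmoglein of differentiated upper layers. Its probe A_52_P475111 (chr18:20501268-20501327, plus strand, mm9) read 4.88, 6.67 and 4.56 in esophagus and 4.78, 4.99 and 4.56 in stomach. It was well above background on esophagus array 2 alone, and the tissues overlap. The difference of 0.59 (SE 0.50, adjusted p = 0.562 by limma) became -0.06 without that array. With background-subtracted signals it was 1.73 scaled to the 75th percentile and 1.59 with quantile normalization, neither called (adjusted p = 0.367 and 0.591 by limma). The mouse has several close copies of this gene, so the values belong to this probe, and those of *Dsg1b* and *Dsg1c* are given below.

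*Dsc3*, the desmocollin of basal and lower layers of stratified epithelia, was higher in esophagus at both of its probes. A_55_P1999483 (chr18:20124142-20124201, minus strand, mm9) read 9.97, 9.75 and 9.17 in esophagus and 4.99, 4.89 and 5.04 in stomach. The esophagus arrays lay close together, and no stomach value was well above background. The difference was 4.66 (SE 0.22, n = 3 per tissue, adjusted p = 6.57e-06 by limma), at least 24.9-fold, or 12.3-fold with an offset of 50 and 206-fold and 185-fold with background-subtracted signals in the same order of scalings.

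The second *Dsc3* probe, A_66_P138055, covers 2118 bases of genome with its 60 bases, so that it lies across 2058 bases of intron and reads joined exons. It read 7.97, 8.36 and 7.83 in esophagus and 5.20, 4.71 and 4.72 in stomach. The tissues again did not overlap, with a difference of 3.17 (SE 0.21, adjusted p = 4.49e-05 by limma) and at least 8.54-fold, or 4.53-fold with an offset of 50 and 51.5-fold and 54.8-fold with background-subtracted signals.

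*Dsc2*, the most widely expressed desmocollin, was well above background on all 6 arrays. Its probe A_55_P1965303 (chr18:20189299-20189358, minus strand, mm9) read 14.06, 13.22 and 11.44 in esophagus and 11.27, 10.86 and 11.61 in stomach. Esophagus arrays 1 and 2 are above every stomach array, while esophagus array 4 lies among them. The difference of 1.66 (SE 0.59, n = 3 per tissue) was not called (adjusted p = 0.129 by limma). Without esophagus array 4, or equally with the slide as a term, it was 2.40 (adjusted p = 0.00301 by limma). Within mice 1, 2 and 4 the difference was 2.79, 2.37 and -0.16.

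The desmosomal cadherin genes lie together on mouse chromosome 18, and the probes of its 9 members on the array span 639 kb (chr18:20122029-20761236, mm9). In order along the chromosome they are *Dsc3*, *Dsc2*, *Dsc1*, *Dsg1c*, *Dsg1a*, *Dsg1b*, *Dsg4*, *Dsg3* and *Dsg2*. Of their 15 probes, 5 were higher in esophagus, 2 were higher in stomach and 8 were not called, and 10 of the 15 are probes of the 5 cadherins above. Over all probes these shares were 5.94% and 6.22%. *Dsg3* and *Dsg2*, next to each other on the same strand with 33857 bases between the starts of their facing probes, differed in opposite directions. The part of position in these differences was not tested. *Dsg4*, a desmoglein of hair and cornified layers, lies on the other side of *Dsg3* and was well above background on no array at either of its probes.

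**Figure D2:**
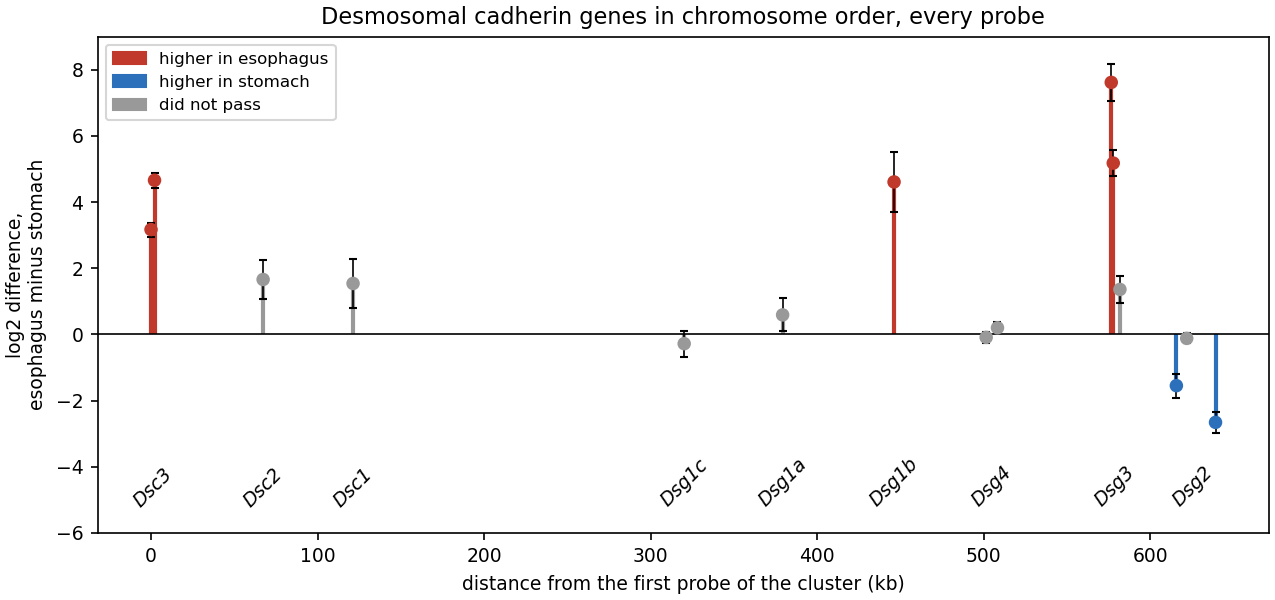
Log2 difference, esophagus minus stomach (vertical axis; whiskers are the SE of limma), of each of the 15 probes of the desmosomal cadherin genes against its distance in kb from the first probe (horizontal axis). Red and blue stand for probes higher in esophagus and in stomach, and gray for those not called. *Dsc3* at the left end, *Dsg1b* and *Dsg3* point upwards, and *Dsg2* at the right end points downwards.

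Among the remaining cadherins of this cluster, *Dsg1b* read 10.43, 10.51 and 6.72 in esophagus and 4.69, 4.6 and 4.56 in stomach. It was at least 21.6-fold higher in esophagus (difference 4.61, SE 0.91, adjusted p = 0.0147 by limma), and esophagus array 4 was by far the lowest of its tissue. The bound was 51.3-fold without esophagus array 4, 14.2-fold without array 1 and 13.8-fold without array 2, and the fold was 11.1 at an offset of 50 and 175 and 167 with background-subtracted signals. The call was lost without stomach array 1 (adjusted p = 0.0632), stomach array 2 (0.0656) or esophagus array 2 (0.0508), at an offset of 50 (0.0766) and with trend and robust variances (0.0702), each by limma. *Dsg1c* read 9.61, 9.78 and 8.21 in esophagus and 9.57, 9.58 and 9.29 in stomach. These overlap and were not called (difference -0.28, SE 0.39, adjusted p = 0.747 by limma). *Dsc1*, the desmocollin of the uppermost layers, was well above background on 2 esophagus arrays and was not called (difference 1.54, SE 0.73, adjusted p = 0.256 by limma).

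In the plaque, all probes of desmoplakin and plakoglobin were higher in esophagus. Desmoplakin is the plakin that binds keratin filaments, and plakoglobin is the armadillo protein shared by desmosomes and adherens junctions. By A_51_P101460, which is printed 10 times on each array, *Dsp* read 15.38, 15.81 and 15.06 in esophagus and 12.45, 12.27 and 12.75 in stomach. The tissues do not overlap, and the SD of the repeated spots within an array, which is technical, was 0.12 to 0.20. *Dsp* was 7.59-fold higher in esophagus (difference 2.92, SE 0.23, n = 3 per tissue, adjusted p = 0.000114 by limma).

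The other *Dsp* probe, A_51_P201884, covers 1100 bases of genome and thus lies across 1040 bases of intron. It read 7.70, 8.30 and 7.35 in esophagus and 5.95, 5.62 and 5.62 in stomach. There is no overlap, and the difference was 2.06 (SE 0.25, adjusted p = 0.00135 by limma), or 1.45 with an offset of 50 and 2.58 and 2.69 with background-subtracted signals. *Jup* read 7.35, 7.78 and 6.84 in esophagus and 5.47, 6.08 and 5.92 in stomach. This separation was narrower, at 2.84-fold (difference 1.5, SE 0.27, adjusted p = 0.00933 by limma), and the call was lost under background-subtracted signals with quantile normalization (difference 2.14, adjusted p = 0.0693 by limma).

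The first 30 bases of the plaque probes are given here to show which stretch of each transcript the values come from. The 2 *Dsp* probes map to chr13:38290121-38290180 and chr13:38285480-38286579 on the plus strand, and the *Jup* probe to chr11:100238038-100238097 on the minus strand (mm9, by the files).
Dsp A_51_P101460: aaattacactgactactggtggcttagtac
Dsp A_51_P201884: aatttgagacaggaaattgagaaattccaa
Jup A_65_P13547: ccgggatcccatgaaccgcatggagatctt

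The cadherin genes, all on chromosome 18, were left out of the promoter search. Among the others of the 10 genes, promoter windows from RefSeq (GRCm38.p6, 250 bases before to 50 after the start site) were matched for 2. These were the windows of *Jup* and *Dsp*, both genes higher in esophagus. They were searched on both strands for TGANTCA (the AP-1 motif), AACNNGTT (grainyhead-like factors) and CACCC (Krüppel-like factors), which do not overlap one another here and occur in 7.81%, 4.20% and 57.5% of 32851 windows. *Jup* (chr11:100397741-100398040, minus strand) held CACCC or its complement 2 times and *Dsp* (chr13:38151044-38151343, plus strand) 1 time, and these letters were in neither window for the other motifs. GC content was 60.7% for *Jup* and 73.0% for *Dsp*.

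For the plakophilins, *Pkp1* and *Pkp2* differed strongly in opposite directions, and *Pkp3* was not called. *Pkp1*, the plakophilin of stratified epithelia, read 16.06, 16.22 and 15.31 in esophagus and 7.85, 7.82 and 9.90 in stomach. The esophagus arrays are all higher, and stomach array 4 stands above the other 2 stomach arrays. *Pkp1* was 162-fold higher in esophagus (difference 7.34, SE 0.55, n = 3 per tissue, adjusted p = 9.35e-05 by limma), with differences of 8.22, 8.40 and 5.41 within mice 1, 2 and 4. Without stomach array 4 it was 261-fold.

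*Pkp2*, the plakophilin of simple epithelia and heart, read 11.82, 11.82 and 11.87 in stomach and 6.59, 7.70 and 8.24 in esophagus. The stomach arrays were nearly equal, whereas the esophagus arrays spread over 1.65. *Pkp2* was 20.1-fold higher in stomach (difference -4.33, SE 0.37, adjusted p = 0.000203 by limma) and was still well above background on all 3 esophagus arrays.

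*Pkp3*, which is known from most epithelia, read 12.97, 13.04 and 12.89 in esophagus and 12.08, 12.45 and 13.27 in stomach. The esophagus values lie within the stomach range, and the difference of 0.37 (SE 0.29, adjusted p = 0.524 by limma) was not called. Without stomach array 4 it was 0.70 (adjusted p = 0.0467 by limma). A long CT repeat fills bases 24 to 44 of this probe. Only 9 other probes, 0.0162% of the array, hold such a repeat of 16 bases or more, a length chosen after the *Pkp3* values were seen. These 9 were well above background on all 6 arrays, as were 38.4% of all probes, and 0 of the 9 were called by limma or had an unadjusted p under 0.05, where 12.2% of all probes, or 25.1% of those well above background on every array of a tissue, were called. The part of the repeat in the *Pkp3* signal was not tested.

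The stretches below come from the single probe of each plakophilin, with the CT repeat of *Pkp3* in capitals. The probes map to chr1:137768027-137768086 (*Pkp1*, minus strand), chr16:16272648-16272707 (*Pkp2*, plus strand) and chr7:148276140-148276199 (*Pkp3*, plus strand) in mm9. Bases 1 to 30 are shown for *Pkp1* and *Pkp2* and bases 20 to 49 for *Pkp3*.
Pkp1 A_51_P151732: catcttgtatgagaaccttgtgctgaacgg
Pkp2 A_51_P225427: tgagtgtgcaccggaggaacacctgagaaa
Pkp3 A_55_P2129578: ggacCTCTCTCTCTCTCTCTCTCTCctctc

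**Figure D3:**
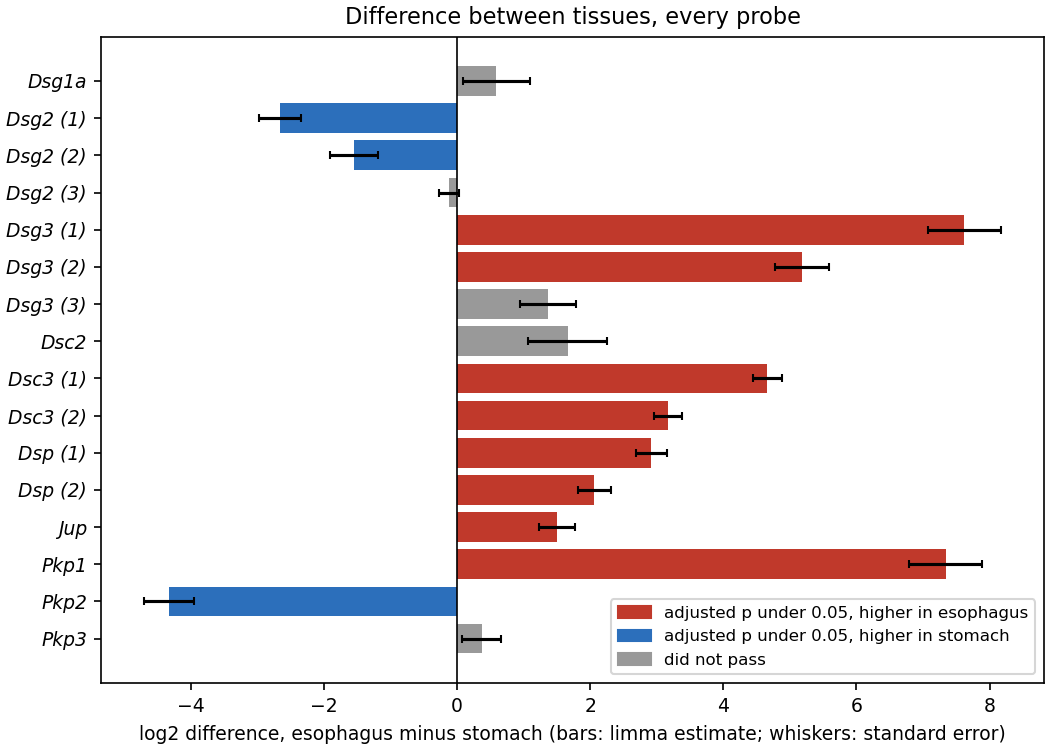
Log2 difference, esophagus minus stomach (horizontal axis; whiskers are the SE of limma), of each of the 16 probes. Red bars are higher in esophagus, blue bars higher in stomach and gray bars not called, and the longest bars are *Dsg3*, *Pkp1* and, to the left, *Pkp2*.

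Whether 2 related genes differed unequally between the tissues was asked by subtracting them within each array, with the brightest probe of each. Since probes differ in response, only the shift between tissues is read. Each shift equals the difference of the first probe minus that of the second, both given above. It therefore restates those differences and adds no separate evidence. The plakophilins were well above background in both tissues. *Pkp1* minus *Pkp2* was 9.47, 8.52 and 7.06 in esophagus and -3.97, -4 and -1.97 in stomach, a shift of 11.67. The smallest gap between any esophagus and any stomach array, 9.03, exceeded the range within either tissue. *Pkp1* minus *Pkp3* shifted by 6.97 and *Pkp3* minus *Pkp2* by 4.69, each with no overlap between tissues. Both rest on the *Pkp3* probe, where the part of the CT repeat in the signal was not tested.

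For the cadherin pairs, *Dsg3*, *Dsg1a* and *Dsc3* stayed at background on all 3 stomach arrays, so the size of each shift depends on the floor and on the background correction. *Dsg3* minus *Dsg2* was 7.25, 4.77 and 4.01 in esophagus and -4.89, -5.60 and -4.32 in stomach, a shift of 10.28 on the deposited scale and 8.78 to 13.61 over 11 alternatives. *Dsc3* minus *Dsc2* was -4.09, -3.47 and -2.27 in esophagus and -6.28, -5.97 and -6.57 in stomach, a shift of 2.99 and 1.98 to 5.87 over the same alternatives. *Dsg1a* was well above background on esophagus array 2 alone, so the shift of *Dsg1a* minus *Dsg2*, 3.26, mostly repeats the difference of *Dsg2* and is not read as a change of *Dsg1a*. All 6 pairs gave an exact two-sided permutation p of 0.1, which is the smallest that 3 against 3 arrays allow, and 0.1 after Benjamini-Hochberg adjustment over the 6.

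**Figure D4:**
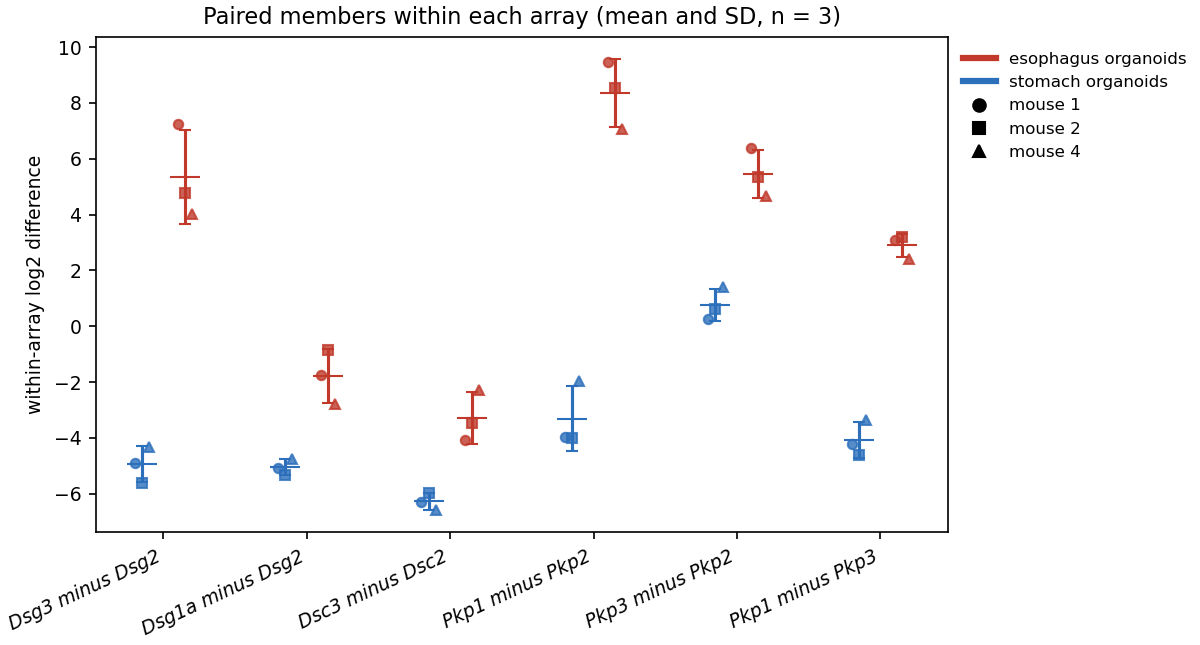
Log2 difference between 2 genes within each array (vertical axis) for 6 pairs, with points for arrays, a marker shape for each mouse, and mean and SD of 3 arrays per tissue (esophagus red, stomach blue). Heights of different pairs are not comparable, and in each pair the red points lie above the blue ones, with the stomach values of *Dsg3*, *Dsg1a* and *Dsc3* at background.

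The esophagus arrays were not alike. On array 4, 11 of the 13 probes well above background on all esophagus arrays were lower than the mean of arrays 1 and 2, with a median difference of -0.65. Over all 22802 such probes the median was 0.07. *Dsc2* was lower by a log2 difference of -2.20, and both *Dsg3* probes by -1.73 and -1.52, while 5.19% of such probes were lower by more than 1. *Pkp2*, at 1.1, was the single gene of the 10 that was higher by more than 1.

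The same array was also lower for several genes of upper squamous layers. *Lor*, loricrin of the cornified envelope, differed by -5.31, *Sprr3* by -3.78 and *Tgm1*, a cross-linking enzyme of that envelope, by -1.81, but *Krt13* differed by -0.31 and *Ivl* by 0.42. The mean over 7 suprabasal genes was 12.46 on array 4 and 14.23 and 14.39 on arrays 1 and 2. The mean over 5 basal genes was 15.90, against 15.69 and 15.77, with *Krt15* at 1.21 and the other 4 genes between -0.24 and 0.03. The mean over 4 immune marker genes was 7.47 on array 4 and 8.03 and 7.97 on arrays 1 and 2, and that over 5 muscle marker genes was 5.5 against 5.95 and 6.25. Of these lists *Cd68*, at 11.80 against 14.77 and 12.94, and *Tagln*, at 8.55 against 10.41 and 10.13, were lower on array 4, *Cd3e* was not, at 7.55 against 7.39 and 7.23, and *Ptprc*, *Des* and *Myh11* were well above background on no array. The part of slide, layer composition or other cells in the lower cadherin values was not tested.

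**Figure D5:**
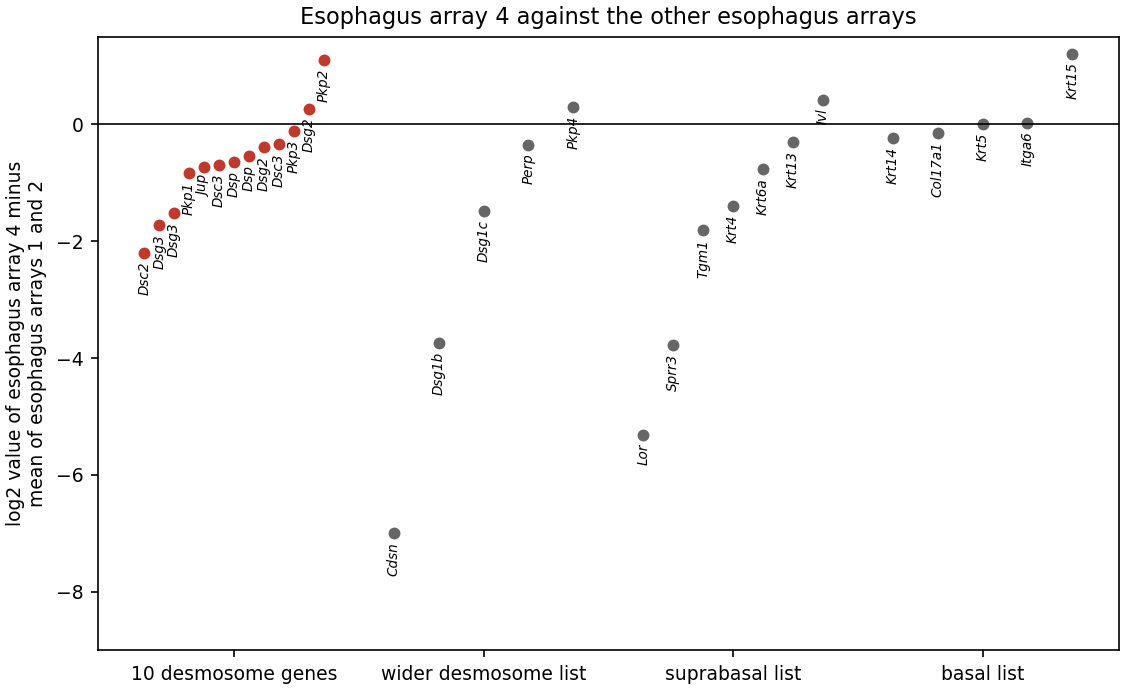
Log2 value on esophagus array 4 minus the mean of esophagus arrays 1 and 2 (vertical axis) for probes well above background on all 3 esophagus arrays, 1 point per probe of the 10 desmosome genes (red) and 1 per gene of 3 lists (gray). *Dsc2* and *Dsg3* lie lowest among the red points, *Cdsn* and *Dsg1b* lie lowest in the wider desmosome list, and most basal genes lie near 0.

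The stomach array of mouse 4, the 1 harvested on day 7, was higher than the other stomach arrays for *Pkp1* by 2.06 and for *Pkp3* by 1.01. Both *Dsg2* probes detected in stomach were lower there, by log2 differences of -1.17 and -0.77, and the median over the 9 probes well above background on all stomach arrays was 0.14. Of such differences over 24436 probes, 3.47% were above 1 and 4.14% below -1. *Tgm1*, at 6.95 against 5.64 and 5.22, *Krt13* by A_55_P2006296, at 6.35 against 5.38 and 5.12, and *Krt15*, at 6.22 against 5.30 and 5.05, were highest on the same array, although they were well above background on only 2, 2 and 1 stomach arrays. The other *Krt13* probe, A_51_P307964, was lowest there, at 7.57 against 8.19 and 8.5. *Dsg3* and *Dsc3* were not well above background there, while the mean over 7 suprabasal genes was 6.36 against 5.70 and 5.64 and that over 5 basal genes 7.46 against 7.03 and 6.91. The immune list averaged 7.84 against 7.19 and 7.33, with *Cd68* 1.23 higher, and *Tagln* was 1.72 higher. Of 7 gastric marker genes, *Muc6* was 1.93 and *Pgc* 1.11 higher on this array, and the other 5 differed by -0.56 to 0.2. The part of the day or of other cells in these values was not tested.

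The wider set of 7 desmosome genes had 3 higher in esophagus, 1 higher in stomach and 3 not called, with a median difference of 1.54. Of all genes, 7.88% were higher in esophagus and 8.33% in stomach, and the same shares stand beside the counts of the lists that follow. The genes higher in esophagus were, beside *Dsg1b*, *Perp*, a tetraspan membrane protein of desmosomes (difference 2.33, SE 0.16, adjusted p = 6.48e-05 by limma), and *Cdsn*, corneodesmosin of cornified layers (difference 6.66, SE 1.69, adjusted p = 0.0413 by limma). *Cdsn* read 14.65 and 14.30 on esophagus arrays 1 and 2 but 7.48 on array 4, and 5.36 to 5.59 in stomach. Its call was lost without any 1 array other than esophagus array 4 (adjusted p = 0.0816 to 0.14 by limma), at an offset of 50 (0.121), with trend and robust variances (0.177) and under background-subtracted signals with quantile normalization (0.0927). Its difference was 5.41 without esophagus array 1, 5.58 without array 2 and 8.99 without array 4, and 8.01 and 8.1 with background-subtracted signals. *Pkp4*, a plakophilin relative found mainly at adherens junctions, was higher in stomach (difference -1.08, SE 0.21, adjusted p = 0.0126 by limma). Without stomach array 1, stomach array 2 or esophagus array 2, 1 gene of the 7 was higher in esophagus, namely *Perp*, and *Pkp4* was not called without stomach array 1 (adjusted p = 0.0555 by limma) or under background-subtracted signals scaled to the 75th percentile (difference -1.05, adjusted p = 0.0771 by limma).

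Of 6 other cytolinkers, 3 were higher in esophagus, with a median difference of 1.88 over the list. Envoplakin (*Evpl*, 3.18, SE 0.47) and periplakin (*Ppl*, 3.10, SE 0.51) link the cornified envelope to filaments and passed with adjusted p = 0.00346 and 0.00588 by limma. *Dst*, a plakin with hemidesmosomal and other isoforms, differed by 4.90 (SE 0.29, adjusted p = 2.53e-05 by limma) at A_51_P489996, by 1.04 (SE 0.26, adjusted p = 0.0405 by limma) at A_51_P300434 and by -0.89 (SE 0.20, adjusted p = 0.0241 by limma) at A_52_P445253, and its remaining probe was not called. The call at A_51_P300434 was lost without any 1 array other than stomach array 4 and esophagus array 4 (adjusted p = 0.101 to 0.153 by limma), at an offset of 50 (0.0689), with the mouse as a block (0.0908) and under background-subtracted signals with either scaling (0.0809 and 0.0976). Without esophagus array 4 *Ppl* differed by 3.74. The *Dst* call toward stomach was lost without stomach array 1, stomach array 2, esophagus array 1 or esophagus array 4. The last is the same fit as the slide as a term (adjusted p = 0.0624 by limma). With background-subtracted signals the difference at this *Dst* probe was -1.74 and -1.56. *Plec*, *Eppk1* and *Macf1* were not called.

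The adherens junction is the neighboring cadherin junction and also uses plakoglobin. Of 6 of its genes, *Cdh3*, P-cadherin, was higher in esophagus (difference 3.44, SE 0.16, adjusted p = 5.72e-06 by limma). *Ctnnd1*, p120-catenin, was higher in stomach at 1 of 3 probes, A_51_P349182 (difference -1.81, SE 0.21, adjusted p = 0.000961 by limma). Its brightest probe, A_55_P1953252, differed by -0.06 and the third by -0.08, neither called (adjusted p = 0.934 and 0.911 by limma). *Cdh1*, E-cadherin, read 13.33, 13.11 and 12.53 in esophagus and 13.45, 13.38 and 14.09 in stomach and was not called (adjusted p = 0.197 by limma), nor were *Ctnna1*, *Ctnnb1* and *Vcl*. The median difference over this list was 0.01.

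Among 12 genes known to act on desmosomes, 5 were higher in esophagus and 2 in stomach, *Trp63* by different probes in both, with a median of 0.41. *Trp63*, the squamous transcription factor p63, was higher in esophagus at 3 of its 4 probes. By A_51_P216550 it was at least 299-fold higher (difference 8.55, SE 0.26, adjusted p = 6.99e-07 by limma). The fold was 137 with an offset of 50 and 2760 and 2320 with background-subtracted signals. The probe brightest by its mean over the 6 arrays, A_55_P2161055, had the lowest esophagus mean of the 4, 9.99. By that probe *Trp63* was lower in esophagus (difference -1.22, SE 0.27, adjusted p = 0.0249 by limma). The latter call was lost without any 1 array other than stomach array 4 and esophagus array 4 (adjusted p = 0.0615 to 0.11 by limma), at an offset of 50 (0.0556) and under background-subtracted signals with either scaling (0.105 and 0.0878). *Grhl1* and *Grhl3*, grainyhead-like factors, differed by 1.93 (SE 0.43, adjusted p = 0.0247 by limma) and 4.27 (SE 0.56, adjusted p = 0.00198 by limma), and the *Grhl1* call was lost without any 1 array other than stomach array 4 and esophagus array 4 (adjusted p = 0.0565 to 0.109 by limma), at an offset of 50 (0.0608) and under background-subtracted signals with quantile normalization (0.0963). *Grhl3* differed by 4.93 without esophagus array 4. *Klk7*, a protease that cuts corneodesmosomes, and *Spink5*, an inhibitor of such proteases, were both higher in esophagus, by at least 10.7-fold and 371-fold (adjusted p = 0.0324 and 3.31e-05 by limma). Without esophagus array 4 these bounds were 24-fold and 581-fold, and without esophagus array 2 that of *Klk7* was 6.34-fold. With an offset of 50 the folds were 5.72 and 167, and with background-subtracted signals 65.2 and 63.8 for *Klk7* and 3870 and 3240 for *Spink5*. The *Klk7* call was lost without any 1 array other than esophagus array 4 (adjusted p = 0.0696 to 0.119 by limma), at an offset of 50 (0.122), with trend and robust variances (0.115) and under background-subtracted signals with quantile normalization (0.0638). *Adam10*, a sheddase that cleaves cadherins, was higher in stomach (difference -0.95, SE 0.16, adjusted p = 0.00722 by limma), a call lost under background-subtracted signals scaled to the 75th percentile (difference -0.66, adjusted p = 0.239 by limma). *Grhl2*, *Klf4*, *Prkca*, *Adam17* and *Klk5* were not called.

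The filaments that desmosomes anchor to also differed, as in the marker check. *Krt5* and *Krt14*, keratins of basal squamous cells, differed by 11.93 and 11.30, and *Krt8* and *Krt18*, keratins of columnar cells, by -11.24 and -5.47 (adjusted p = 3.23e-08, 1.01e-07, 5.93e-08 and 2.27e-05 by limma). The lower side of these was near background, since *Krt5* was well above it on 1 and *Krt14* on 2 of 3 stomach arrays and *Krt8* on 1 of 3 esophagus arrays, and with an offset of 50 the differences of these 3 genes were 10.88, 10.27 and -10.43, and with background-subtracted signals scaled to the 75th percentile 14.05, 12.27 and -12.98.

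The genes nearest in pattern were sought for 3 of the 10 genes, by the Euclidean distance between the 6 log2 values after centering each probe on its mean, over the brightest probes of 15759 genes. For *Dsg3* these were *Tmprss11g* (distance 0.94), *Cbr2* (1.09), *Ppbp* (1.12), *Tgm1* (1.14) and *Gm5478* (1.15). For *Pkp2* they were *Napepld* (0.32), *Nup210* (0.42), *Rasef* (0.59), *2210011C24Rik* (0.64) and *Tmem8* (0.64). For *Dsg1a* they were *Egr1* (0.46), *Snhg12* (0.47), *Ypel1* (0.60), *LOC100048452* (0.62) and *5330431K02Rik* (0.64), all highest on esophagus array 2. These distances describe the 6 arrays and carry no test.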

How the data were processed

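RNA from organoids was hybridized to 6 single-color Agilent arrays, whose scans the authors converted by Feature Extraction 11.5.1.1 with mm9 annotation, per the file headers. The deposited scanner files hold unnormalized spot intensity values and flags, and the deposited table holds log2 values that the authors had background corrected and quantile normalized. The authors' background method is not given in the sources used here. Normexp (offset 15) on median signals with quantile normalization differed from these log2 values by a median of 0.00507 and at most 0.243, and 2029 empty cells were the 2029 outlier-marked spots.

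Spots of a probe were averaged. In R 4.3.3, limma 3.58.1 (lmFit, eBayes) compared the 2 tissues on all 6 arrays with no block, p-values were adjusted over 55681 probes (Benjamini-Hochberg), and a gene was counted when at least 1 probe passed. The script was tested on simulated data. Arrays of the 2 tissues that carry the same mouse number were read as pairs. The labels and methods do not state that such arrays share an animal. Deviations of arrays with the same number correlated with r = 0.025, 0.012 and -0.008 over 55641 probes. The 3 mouse numbers are the replicates, and 6 arrays limit the precision. The 10 genes, the lists and the tests were chosen with earlier results of these data known. Of the lists, all genes were counted, and examples were those with the smallest p-value and those going against the rest. A gene of the regulator list is counted but not reported here by name.

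Alternatives were normexp on mean signals (offset 16 or 50), background-subtracted signals with 75th percentile scaling or quantile normalization, outlier-marked spots kept and a filter on dim probes. Others were mouse or slide as a term, trend and robust variances, a plain pooled-variance test, other summaries of probes, and leaving out each array. Further thresholds were 2-fold, or 1.5-fold with unadjusted p under 0.05. The methods give p under 0.05 and 1.5-fold and do not state whether this p was adjusted. Coordinates are those of the files.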

Additional observations from a re-analysis of the deposited data

How the results depend on the processing

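The counts of the 16 probes stayed within 7 to 10 higher in esophagus and 2 to 3 higher in stomach over 17 alternatives, and those of the 10 genes within 4 to 6 and 1 to 2 over 20. The value 1 came from a plain pooled-variance test with Benjamini-Hochberg adjustment, which was run for the genes and not for the probes. At 1.5-fold with unadjusted p under 0.05, 10 probes were higher in esophagus and 3 in stomach, where 18.1% of all probes passed. Background-subtracted signals scaled to the 75th percentile moved the median difference of all probes from 0.02 to 0.19. That setting, which changes background and scaling together, turned the background-level *Dsg2* probe A_52_P96159 to 0.01 and moved *Dsg3* minus *Dsg2* to 13.61, *Dsg1a* minus *Dsg2* to 4.56 and *Dsc3* minus *Dsc2* to 5.78, with 0 genes of the wider desmosome list and 0 regulators higher in stomach, where *Pkp4*, *Adam10* and 1 *Trp63* probe lost their calls. Background-subtracted signals with quantile normalization gave 13.47, 4.47 and 5.87 for these pairs, and 3 regulators higher in esophagus and 1 in stomach. An offset of 50 gave 8.78 for *Dsg3* minus *Dsg2* and 1.98 for *Dsc3* minus *Dsc2*, 1 gene of the wider list higher in esophagus, and 3 regulators higher in esophagus and 1 in stomach. Trend and robust variances left 1 gene of the wider list higher in esophagus, and the slide term 0 cytolinkers higher in stomach. The cause was not tested. Over the 11 alternatives run for the pairs, which are the other background corrections and scalings, the spots marked as outliers kept, and each array left out, *Pkp1* minus *Pkp2* ranged from 11.11 to 12.34, *Pkp3* minus *Pkp2* from 4.23 to 5.13 and *Pkp1* minus *Pkp3* from 6.70 to 7.33.

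Leaving out 1 array gave 1 to 3 genes of the wider list higher in esophagus and 0 to 1 in stomach, 0 to 1 cytolinkers higher in stomach, and 3 to 6 regulators higher in esophagus and 1 to 2 in stomach. Regulators higher in esophagus fell to 3 without stomach array 1, stomach array 2, esophagus array 1 or esophagus array 2. *Dsg1a* ranged from -0.06 to 1. With the mouse as a replicate block, 9 probes were higher in esophagus and 3 in stomach, and the difference of the third *Dsg3* probe stayed at 1.36 and was called (adjusted p = 0.0416 by limma). The block changed no other call of the 16 probes, and of the other genes named it ended that of 1 *Dst* probe.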
